A study of Mus musculus with 8 samples.

Results

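The genes described here carry the GDNF-RET and FGF signals that drive branching of the ureteric bud in the developing kidney. They are Gdnf, Ret, Gfra1, Etv4, Etv5, Spry1, Spry2, Fgf8, Fgf9 and Fgf20. All 10 were found by symbol among the 49315 Ensembl gene IDs of the deposited count tables, and all 10 passed the filter on low counts that left 18485 genes for testing. Messenger RNA of frozen mouse kidney was sequenced in 8 libraries, 4 from controls and 4 from conditional Kdm1a knockouts. Kdm1a is the gene of the histone demethylase LSD1, and the question is which kidney transcripts differ after its loss. The labels call the first group controls and speak of wild type tissue in the protocol. They name no strain, allele, Cre driver, treatment, age or sex, do not say in which kidney cells Kdm1a was deleted, and do not say whether each library is 1 animal. P values therefore measure the spread between these libraries.

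In the embryonic kidney the ligand GDNF is made by the cap mesenchyme, which holds the nephron progenitors, and by neighbouring stroma. It binds the co-receptor GFRA1 and activates the receptor tyrosine kinase RET on the tips of the ureteric bud, the epithelium that branches into the collecting ducts. RET signalling turns on the ETS transcription factors Etv4 and Etv5, and the Sprouty proteins SPRY1 and SPRY2 damp the kinase cascade below RET and the FGF receptors. FGF9 and FGF20 keep nephron progenitors alive and undifferentiated, and FGF8 acts in the early nephron.

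Total counts ran from 19524945 to 28544511 per library. Kdm1a itself stood at 113 ± 4.77 counts per 1000000 counts of the library (CPM, after TMM scaling) in controls and 93.6 ± 1.88 CPM in knockouts (SD, n = 4 each), with all knockouts below all controls. Its log2 fold change was −0.27 (SE 0.05, edgeR adjusted p 0.0194), a call kept in 3 of the 8 fits with 1 library removed. The counts cover the whole gene, and the labels do not say which exons were deleted. Transcripts of nephron progenitors were present in every library: Six2 ran from 96.9 to 219 CPM. Control replicate 2 and knockout replicates 1 and 4 had Y-linked transcripts near 0, with Ddx3y at 1.08 CPM or less, while the other 5 libraries had 75.5 CPM or more. The 8 adrenal cortex markers, 6 of which passed the filter, 0 of which were called by edgeR and 3 of which had an unadjusted p under 0.05, had a summed level of 2637 CPM in knockout replicate 1. The sum was 291 CPM for knockout replicate 4, 139.8 CPM for control replicate 4 and 11.3 to 16.2 CPM for the other 5 libraries. Germ cell markers summed to 27.2 CPM in control replicate 2 and to at most 3.24 CPM elsewhere.

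Promoter windows from RefSeq (GRCm38.p6) were found for 6 of the 10 genes, with none for Ret, Etv4, Fgf8 and Fgf20. Those of Gdnf and Spry2, which were higher in the knockout, and of Spry1, the paralog of Spry2 that was not called, are shown as the 250 bases before the annotated start. They are written 5′ to 3′ along the gene's strand, and capitals mark each GGAA, the core of the ETS motif that Etv4 and Etv5 recognise. The Gdnf window, the first of the 2 in the table, is chr15:7809798-7810047 on the plus strand and lies upstream of the first exon of the deposited gene model. The Spry2 window is chr14:105896820-105897069 on the minus strand and the Spry1 window is chr3:37639697-37639946 on the plus strand.
Gdnf: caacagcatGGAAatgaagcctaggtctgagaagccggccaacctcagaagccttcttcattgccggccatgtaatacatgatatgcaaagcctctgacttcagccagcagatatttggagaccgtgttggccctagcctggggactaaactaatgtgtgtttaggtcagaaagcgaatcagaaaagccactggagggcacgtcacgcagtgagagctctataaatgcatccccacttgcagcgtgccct
Spry2: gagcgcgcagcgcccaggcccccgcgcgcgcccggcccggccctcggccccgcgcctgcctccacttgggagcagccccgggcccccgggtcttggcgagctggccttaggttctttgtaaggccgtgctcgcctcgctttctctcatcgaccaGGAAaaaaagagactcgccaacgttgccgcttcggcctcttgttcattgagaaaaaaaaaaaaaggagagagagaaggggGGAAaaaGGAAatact
Spry1: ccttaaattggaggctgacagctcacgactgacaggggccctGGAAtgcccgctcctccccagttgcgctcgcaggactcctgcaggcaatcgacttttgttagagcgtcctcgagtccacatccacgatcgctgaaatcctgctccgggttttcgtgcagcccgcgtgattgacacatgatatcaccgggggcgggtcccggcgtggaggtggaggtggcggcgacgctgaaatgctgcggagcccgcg
GGAA occurs 1 time in the Gdnf window, 3 times in that of Spry2 and 1 time in that of Spry1, counting both strands (TTCC is absent from all 3). The other Gdnf window, chr15:7813477-7813726 on the plus strand, holds 7, so the count for Gdnf depends on the start chosen. The median over 32851 windows of this length was 3, and 93.4% held at least 1. The longer ETS sequence CCGGAAGT, searched on both strands, was in 2.88% of all windows and in 0 of the 8 windows of the 6 genes. The shorter CCGGAA, which is contained in it, was in 12.03% of all windows and in 1 of the 8, that of Gfra1.

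Over the whole set, 3 of 10 genes rose in the knockout at an edgeR adjusted p under 0.05 (a call), namely Gdnf, Ret and Spry2, and 0 fell. Over all genes tested 14.9% were called, 6.61% upward and 8.27% downward. The median log2 fold change of the 10 genes was 0.35, beside 0.00 over all genes tested. Fold changes were above 0 for 9 of the 10, the exception being Fgf8. An unadjusted p under 0.05 was found for 4 of the 10, the 3 called genes and Gfra1, against 35.1% of all genes. The groups of 3 of the 10 did not overlap, all with the knockout higher, against 9.29% of all genes with the knockout higher and 9.58% with it lower. In whole tissue, fewer cells of a type and less RNA per cell cannot be told apart, which holds for every level given here.

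Gdnf (ENSMUSG00000022144, chromosome 15, 7811011 to 7837575, plus strand), the ligand, stood at 72.6, 72.8, 52.1 and 48.4 CPM in control replicates 1 to 4 and at 79.1, 115.7, 86.6 and 96.7 CPM in knockout replicates 1 to 4. Every knockout was above every control, and the gap between knockout replicate 1 and control replicate 2 was small. The means were 61.5 ± 13.1 and 94.5 ± 15.9 CPM (SD, n = 4 each), a log2 fold change of 0.62 (SE 0.17, edgeR adjusted p 0.0390).

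Ret (ENSMUSG00000030110, chromosome 6, 118151745 to 118197718, minus strand), the receptor, showed the largest called rise of the 10. Its level was 98.3, 154.0, 86.2 and 65.1 CPM in control replicates 1 to 4. In knockout replicates 1 to 4 it was 169, 208, 159 and 178 CPM. All knockouts lay above all controls, with control replicate 2 close to the knockout range and the other 3 controls below 100 CPM. The means were 101 ± 38.0 and 178 ± 21.2 CPM (SD, n = 4 each), a log2 fold change of 0.82 (SE 0.23, edgeR adjusted p 0.0437).

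Gfra1 (ENSMUSG00000025089, chromosome 19, 58235604 to 58455909, minus strand), the GDNF-binding co-receptor, had 247, 305, 228 and 158 CPM in control replicates 1 to 4. The knockouts had 341, 404, 289 and 358 CPM. The groups overlapped only because control replicate 2 exceeded knockout replicate 3. The log2 fold change was 0.57 (SE 0.18, 95% interval 0.16 to 0.98), with an edgeR adjusted p of 0.0631, which is not a call. A gene annotated as antisense to it, Gm16277, overlaps its span, and the library kit named in the labels does not mark strand. Reads from both strands therefore cannot be told apart where exons overlap, which was not examined. The same holds for Spry1 with Gm42922 and for Fgf9 with Gm17109.

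The ETS factors that RET induces were not called. Etv4 (ENSMUSG00000017724, chromosome 11, 101769742 to 101785371, minus strand) was at 151, 169, 125 and 99.4 CPM in controls and at 147, 188, 148 and 155 CPM in knockouts. Control replicates 1 and 2 lay within the knockout range. Its log2 fold change was 0.23 (SE 0.16, 95% interval −0.12 to 0.58, edgeR adjusted p 0.316). Etv5 (ENSMUSG00000013089, chromosome 16, 22381309 to 22439719, minus strand) was at 126, 158, 112 and 92.9 CPM in controls and at 154, 192, 131 and 155 CPM in knockouts. Only control replicate 2 lay above any knockout. Its log2 fold change was 0.37 (SE 0.17, 95% interval −0.01 to 0.74, edgeR adjusted p 0.149).

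Of the Sprouty inhibitors, Spry2 (ENSMUSG00000022114, chromosome 14, 105891949 to 105896819, minus strand) rose. It stood at 64.4, 63.8, 60.7 and 56.4 CPM in controls and at 72.6, 80.9, 71.3 and 83.3 CPM in knockouts. The spread within each group was small, with a coefficient of variation of 5.98% in controls and 7.74% in knockouts, and the groups did not overlap. The log2 fold change was 0.33 (SE 0.08, edgeR adjusted p 0.0268), the smallest adjusted p of the 10. Spry1 (ENSMUSG00000037211, chromosome 3, 37639947 to 37644598, plus strand), the Sprouty gene whose loss gives extra ureteric buds in mice, was at 129.7, 152, 126 and 105 CPM in controls and at 159, 156, 129.6 and 162 CPM in knockouts. Knockout replicate 3 lay below control replicate 2 and level with control replicate 1. The log2 fold change was 0.24 (SE 0.11, 95% interval −0.02 to 0.50, edgeR adjusted p 0.166).

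The 3 FGF ligands were not called. Fgf8 (ENSMUSG00000025219, chromosome 19, 45736798 to 45742915, minus strand) was at 15.7, 7.65, 11.3 and 11.95 CPM in controls and at 9.25, 11.1, 10.6 and 10.8 CPM in knockouts, so that the highest and the lowest library were both controls. Its log2 fold change was −0.16 (SE 0.20, 95% interval −0.61 to 0.29, edgeR adjusted p 0.587). Fgf9 (ENSMUSG00000021974, chromosome 14, 58070547 to 58112337, plus strand) was at 11.4, 13.2, 12.9 and 17.3 CPM in controls and at 14.5, 16.7, 12.8 and 11.2 CPM in knockouts. The ranges of Fgf9 were nearly the same, and its log2 fold change was 0.01 (SE 0.17, 95% interval −0.36 to 0.39, edgeR adjusted p 0.963).

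Fgf20 (ENSMUSG00000031603, chromosome 8, 40279166 to 40308331, minus strand) was the least abundant and most variable gene of the set, with 18 to 174 counts per library. It was at 2.09, 8.07, 1.13 and 0.818 CPM in controls and at 6.63, 5.77, 2.46 and 2.63 CPM in knockouts. Control replicate 2 had the highest level of all 8 libraries, and the other 3 controls lay below all 4 knockouts. The log2 fold change was 0.53 (SE 0.69, 95% interval −1.02 to 2.08, edgeR adjusted p 0.607). Without control replicate 2 it was 1.68, with an edgeR adjusted p of 0.0234. The span of the gene overlaps Micu3 on the opposite strand and the miRNA gene Mir7666 on its own. Its level may include reads of these neighbours, but overlap of exons was not examined.

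**Figure D1:**
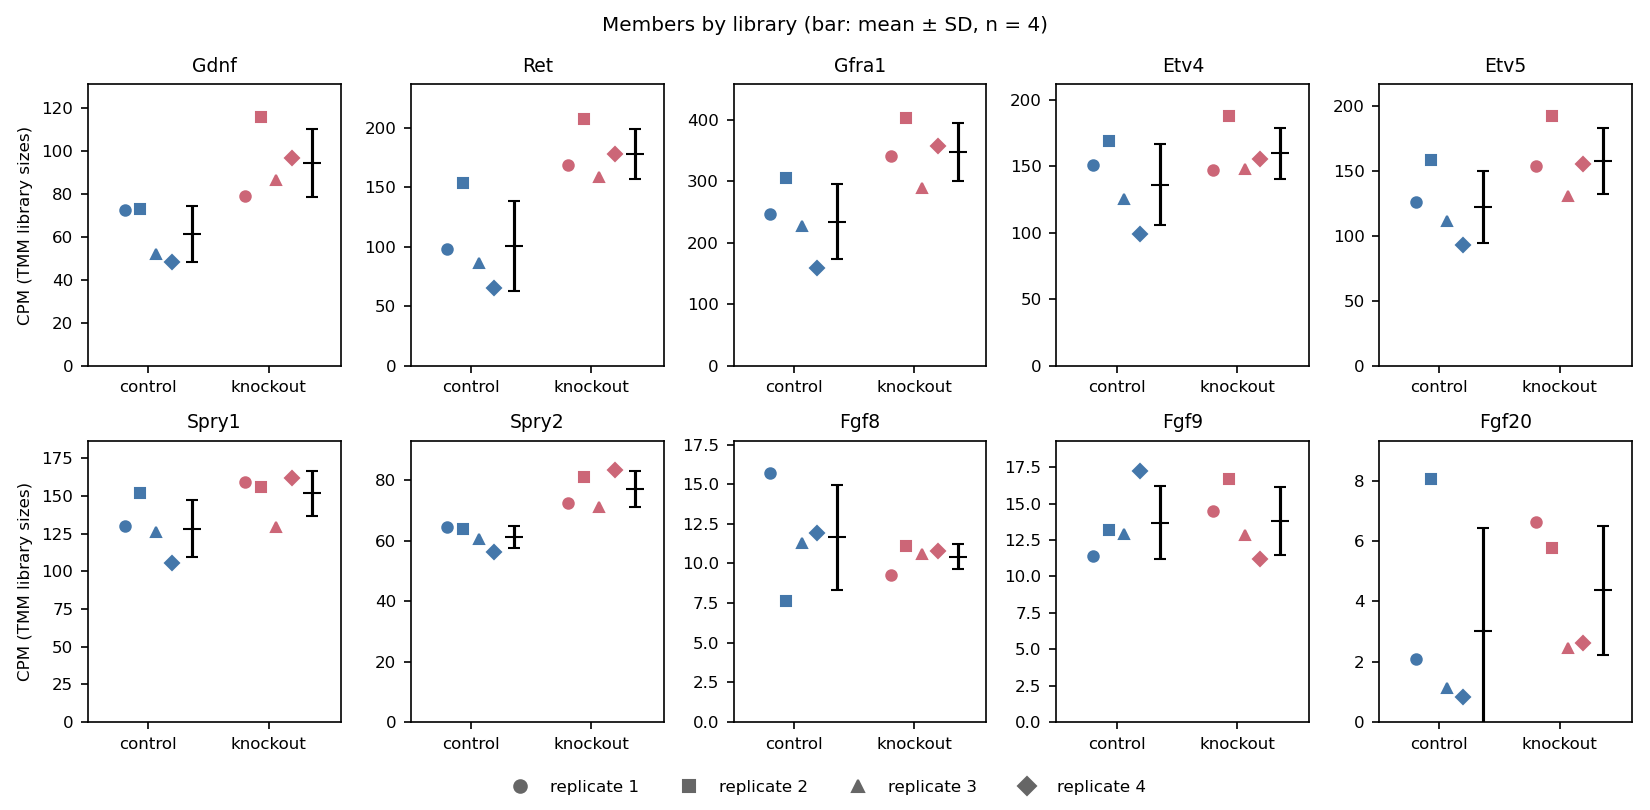
CPM of each of the 10 genes (y axis, linear, from 0) in the 4 control and 4 knockout libraries. Symbols mark the replicate and bars the mean ± SD (n = 4; the lower end for Fgf20 in controls is clipped at 0). For Gdnf, Ret and Spry2 all knockouts lie above all controls, and control replicate 2 is the highest control for 7 of the 10 genes.

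Exact two-sided permutation tests on the mean log2 CPM of each gene, with 70 ways to place the 8 libraries in 2 equal groups, gave p = 0.0286 for Gdnf, Ret and Spry2, the smallest value 4 against 4 libraries allow. Groups that do not overlap always give this value, so for Gdnf, Ret and Spry2 it only restates the lack of overlap given above. Of all genes tested, 18.9% had groups that did not overlap, in either direction. The exact permutation p was 0.0571 for Gfra1, 0.0857 for Spry1, 0.114 for Etv5 and 0.257 or more for the other 4 genes. The genes were chosen with earlier results of these data known, and the permutation p values were not adjusted for this.

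Levels of different genes were compared per length, as CPM per 1000 bases of gene length (RPKM). In controls Spry1 (44.1 ± 6.54), Etv4 (43.9 ± 9.77) and Gfra1 (42.8 ± 11.1) were the most abundant and differed by less than their SD (n = 4). Etv5 (29.8 ± 6.71) and Spry2 (29.4 ± 1.76) followed, again within an SD of each other. Gdnf, at 17.5 ± 3.73, and Ret, at 14.9 ± 5.62 RPKM, were next and overlapped. Fgf8 was at 8.64 ± 2.45, Fgf9 at 3.21 ± 0.590 and Fgf20 at 1.80 ± 2.03 RPKM. In knockouts Gfra1 had the highest mean, 63.6 ± 8.61 RPKM. Gdnf, at 26.9 ± 4.52, and Ret, at 26.4 ± 3.13 RPKM, again differed by less than their SD.

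Within a library, the ratio of Etv4, Etv5 and Spry1 to Ret was lower in every knockout than in every control. The same held for 38.4% of all other tested genes, since Ret itself was higher in every knockout, so this is not particular to the 3 genes. These ratios were chosen after the values were seen and are given without a test. The RPKM ratio of Etv4 to Ret was 3.06 ± 0.455 in controls and 1.95 ± 0.0618 in knockouts (SD, n = 4 each). The knockout ratios fell in a narrow band, 1.90 to 2.03, below every control (2.39 to 3.35). The ratio of Etv5 to Ret was 2.07 ± 0.276 in controls and 1.46 ± 0.0756 in knockouts, and that of Spry1 to Ret was 3.13 ± 0.628 and 1.99 ± 0.205, also with no overlap. For Dusp6, a phosphatase that removes the activating phosphates of ERK, the ratio to Ret overlapped between groups (1.84 to 3.50 in controls, 1.604 to 2.18 in knockouts). That of Spry2 also overlapped, through control replicate 2 (1.34 to 2.81 in controls, 1.26 to 1.52 in knockouts).

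Wnt11, a ligand made at the ureteric tip in a loop with GDNF, stood at 134 ± 11.97 CPM in controls and 132 ± 21.1 CPM in knockouts (SD, n = 4 each). Its log2 fold change was −0.02 (95% interval −0.29 to 0.25, edgeR adjusted p 0.913). The ratio of Ret to Wnt11 was 0.315 to 0.716 in controls and 0.681 to 0.999 in knockouts, overlapping only through control replicate 2 and knockout replicate 3. The ratio of Ret to Gfra1 likewise overlapped only through control replicate 2, at 0.409.

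**Figure D2:**
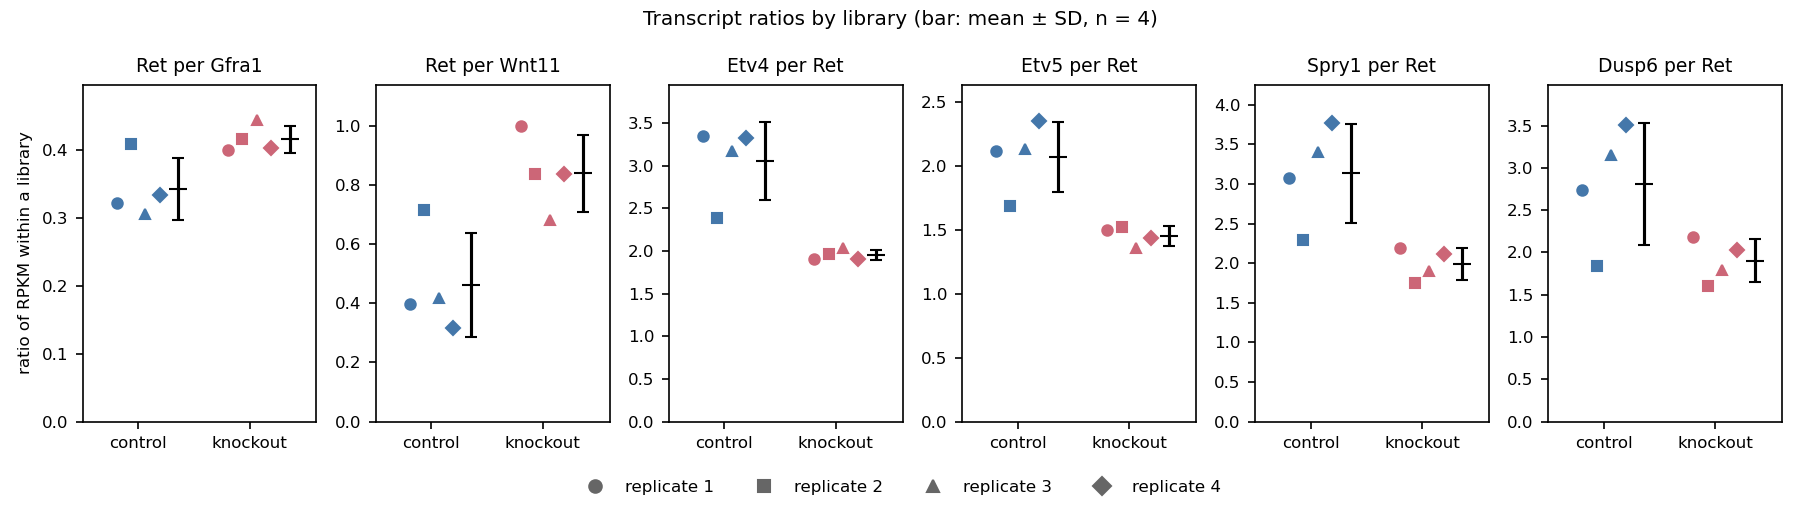
Ratios of RPKM between gene pairs within each library (y axis, linear, from 0), with symbols for replicates and bars for the mean ± SD (n = 4). Etv4, Etv5 and Spry1 per Ret are lower in all knockouts than in all controls, and the 4 knockout values of Etv4 per Ret lie between 1.90 and 2.03.

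Some libraries were high or low for many of the genes. Control replicate 4 was the lowest of all 8 libraries for 8 of the 10 genes, the exceptions being Fgf8 and Fgf9. Knockout replicate 2 was the highest for 5, namely Gdnf, Ret, Gfra1, Etv4 and Etv5. Control replicate 2 was the highest control for Gdnf, Ret, Gfra1, Etv4, Etv5, Spry1 and Fgf20. Mature proximal tubule transcripts (6 markers, all called lower) ran the opposite way. Their sum was highest in control replicate 4 (1189 CPM), lowest among controls in control replicate 2 (283 CPM) and lowest of all in knockout replicate 2 (28.3 CPM). Their part in the results was not tested.

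Transcripts of the cells that make or receive these signals were examined next. For comparison, edgeR called 6.61% of all genes higher and 8.27% lower, and 35.1% had an unadjusted p under 0.05. Of 7 renal stroma markers 5 were called higher and 0 lower, and their sum was 685 to 1111 CPM in controls and 1381 to 1693 CPM in knockouts. Pdgfra, a platelet-derived growth factor receptor, changed by 0.90 on the log2 scale (SE 0.10, edgeR adjusted p 0.00575). Pdgfrb, the other receptor of that family in the list, was at 104 and 99.9 CPM (−0.06, adjusted p 0.746). Nephron progenitor markers were divided: of 7, Cited1 (−1.64, edgeR adjusted p 0.0225) and Meox1 (−1.45, edgeR adjusted p 0.0132) fell and 5 were not called, Six2 among them (0.47, edgeR adjusted p 0.127). The ratio of Gdnf to Six2 per length was 0.285 ± 0.0135 in controls and 0.319 ± 0.0539 in knockouts (SD, n = 4 each), with overlap. Of 10 ureteric bud and collecting duct markers 0 were called in either direction by edgeR, where 1 had an unadjusted p under 0.05. That gene was Hoxb7, a factor of the ureteric epithelium, with a log2 fold change of 0.22 (adjusted p 0.0527) and no overlap between groups. Fold changes were below 0 for 7 of the 10 markers, with a median of −0.47. The 3 above 0 were Hoxb7, Calb1 (0.25, edgeR adjusted p 0.168) and Wnt9b (0.27, edgeR adjusted p 0.274). The sum of the 10 markers was 1347 to 2226 CPM in controls and 1206, 1173, 2011 and 1224 CPM in knockout replicates 1 to 4, so that only knockout replicate 3 lay within the control range. Much of the difference in this sum lay in Aqp2, the water channel of the collecting duct. Aqp2 was at 305, 218, 792 and 415 CPM in control replicates 1 to 4. In knockout replicates 1 to 4 it was at 45.2, 22.3, 508 and 64.7 CPM. The ratio of Ret to Hoxb7 was 0.296 ± 0.0900 in controls and 0.455 ± 0.0546 in knockouts, overlapping through control replicate 2 (0.418) and knockout replicate 3 (0.397). Of 6 early nephron markers 3 fell, Lhx1, Ccnd1 and Osr2, and 0 rose. Of 5 Schwann cell markers 0 were called by edgeR, with 2 at an unadjusted p under 0.05. Proliferation markers were called in 0 of 4 cases by edgeR, with 0 at an unadjusted p under 0.05. The part of these cell types in the results was not tested.

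Ret is also made by sympathetic neurons, so markers of these and of the adrenal medulla are given beside it. Of 9 such markers 7 were tested, and 6 of the 7 had fold changes above 0, with a median of 2.403. By edgeR 0 were called higher, with Th, Dbh, Chga and Chgb at an unadjusted p under 0.05, and 1, Slc18a1, was called lower. Their sum reached 208 CPM in knockout replicate 1 and 169 CPM in replicate 4 of that group, against 10.6 to 49.8 CPM in the other 6 libraries. Slc18a1 alone was a large part of the control sums, at 23.4, 5.43, 14.1 and 27.2 CPM in control replicates 1 to 4. In knockouts Slc18a1 was at 0.703 to 4.06 CPM. Knockout replicates 2 and 3, with the highest and the lowest Ret level among knockouts, had 11.4 and 10.6 CPM of the 9 markers. Their adrenal cortex markers summed to 13.7 and 16.1 CPM. With knockout replicates 1 and 4 left out, the log2 fold change of Ret was 0.86, that of Gdnf 0.72 and that of Spry2 0.31. None of these was then called by edgeR (adjusted p 0.232, 0.194 and 0.202), in a fit with 2 knockouts that called 0.00522% of genes. With the adrenal cortex level as a covariate Gdnf was called (0.78, adjusted p 0.0397), while Ret (0.96, adjusted p 0.0648) and Spry2 (0.36, adjusted p 0.0524) were not. The part of adrenal and neuronal cells in these levels was not tested.

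The calls rested on most of the libraries. With 1 library removed at a time, Gdnf, Ret and Spry2 were each called in 2 of the 8 fits, those without control replicate 2 and without knockout replicate 3. Without any 1 of control replicates 1, 3 and 4 or knockout replicates 1, 2 and 4, 0 of the 10 genes were called by edgeR, and of all genes 2.86%, 2%, 3.65%, 3%, 3.15% and 0.819% were, in that order. Over all 8 fits the highest adjusted p was 0.113 for Gdnf, 0.123 for Ret and 0.0812 for Spry2, and the log2 fold changes stayed between 0.51 and 0.72, 0.66 and 1.10, and 0.28 and 0.38. Without control replicate 2, 7 of the 10 were called, all higher, where 37.4% of all genes were called. The 4 added were Gfra1, Etv5, Spry1 and Fgf20. Without knockout replicate 3, 4 of the 10 were called, Gfra1 being added, where 17% of all genes were. Without both of these libraries the count was 7, where 42.7% of all genes were called.

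DESeq2 called 4 of the 10, adding Gfra1, and 22.5% of all genes. Limma-voom with sample weights called 7 of the 10, the 4 additions being Gfra1, Etv5, Spry1 and Fgf20, and 44.9% of all genes. With no filter on low counts edgeR called 3 of the 10 and 7.36% of all genes, and with a mean of at least 1 CPM it called 3 and 17.3%. With the adrenal cortex covariate above it called 6.14% of all genes.

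**Figure D3:**
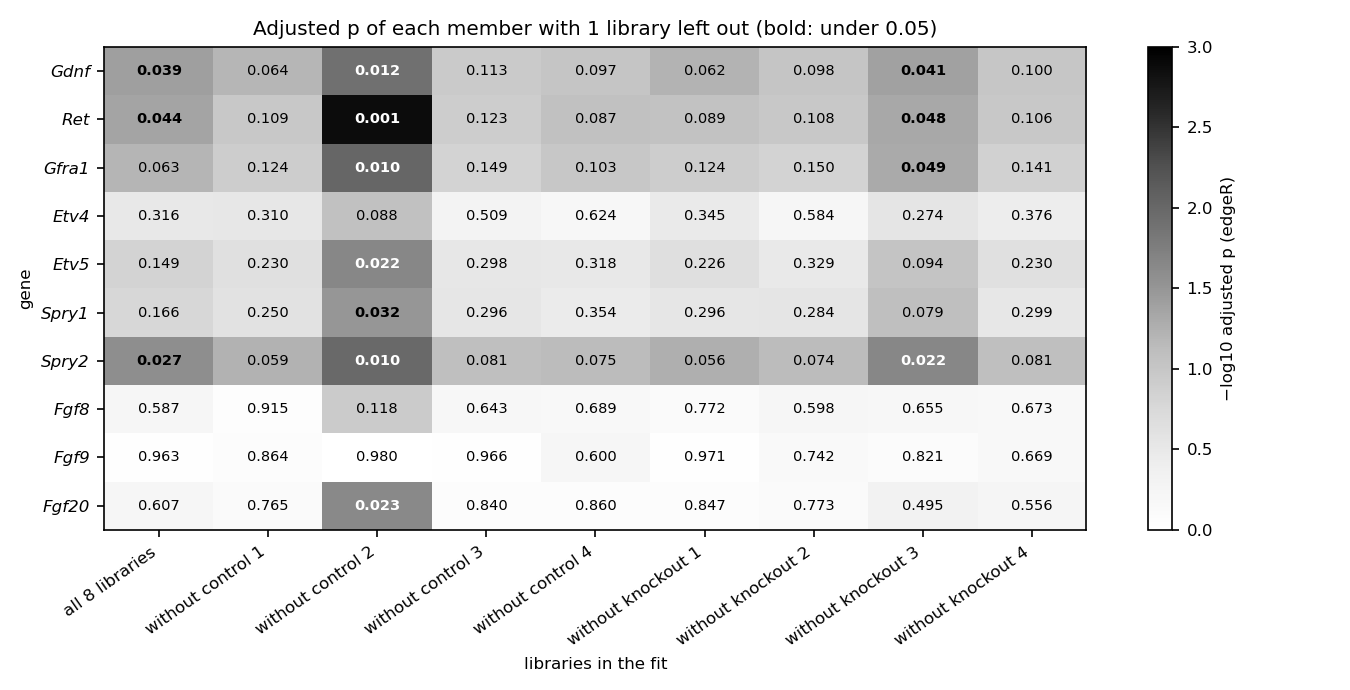
Benjamini-Hochberg adjusted p from edgeR (number and shade, on a −log10 scale) for each of the 10 genes with all 8 libraries and with each library left out. Bold numbers are under 0.05. Gdnf, Ret and Spry2 pass with all libraries, without control replicate 2 and without knockout replicate 3.

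The libraries with and without Y-linked transcripts were also taken apart. Among the 5 with them, 3 controls and 2 knockouts, the mean of Gdnf was 1.75-fold, that of Ret 2.20-fold and that of Spry2 1.26-fold higher in the knockout. Among the 3 without, 1 control and 2 knockouts, the folds were 1.21, 1.12 and 1.22, with both knockouts above control replicate 2 for each gene. In an edgeR fit of the 5 libraries alone, Gdnf (adjusted p 0.0420) and Ret (adjusted p 0.0202) were called and Spry2 was not (adjusted p 0.0568), where 16.7% of all genes were. When the level of Y-linked transcripts entered the fit, Ret and Spry2 were called and Gdnf was not (0.62, adjusted p 0.0559), where 11.2% of all genes were called.

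Other genes of the pathways came from a list of 58, of which 57 were matched and tested. In the knockout 11 rose and 2 fell, and the median log2 fold change was 0.16. Over all genes tested 6.61% were called higher and 8.27% lower, with a median of 0.00. The inhibitors that MAP kinase signalling induces against itself held the most calls. Of 8 tested, 5 rose, 0 fell and the median was 0.36. Spred3 went from 17.7 ± 3.43 to 31.3 ± 3.59 CPM (SD, n = 4 each), by 0.83 on the log2 scale (SE 0.14, edgeR adjusted p 0.0146), and all knockouts were above all controls. It overlaps Ggn on the opposite strand. Spred1 (0.56, adjusted p 0.0442) and Spred2 (0.47, adjusted p 0.0463), which encode Sprouty-related inhibitors of RAF activation, also rose by edgeR, though control replicate 2 overlapped the knockouts in both. Il17rd, a membrane inhibitor of FGF signalling, changed by 0.38 (SE 0.07, adjusted p 0.0184) and Dusp6 by 0.35 (SE 0.10, adjusted p 0.0437). Spry4 (0.28, adjusted p 0.172), Dusp4 (−0.09, adjusted p 0.498) and Dusp5 (−0.24, adjusted p 0.367) were not called. Without knockout replicate 4 or without control replicate 3, 0 of these 8 genes were called higher.

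Among the GDNF relatives the co-receptors Gfra2 and Gfra3 rose. Gfra2, the receptor for neurturin, was at 7.70, 7.19, 5.89 and 5.09 CPM in controls and at 11.9, 20.4, 15.8 and 16.0 CPM in knockouts. The groups were far apart, with a log2 fold change of 1.31 (SE 0.19, edgeR adjusted p 0.0110). It was called whichever single library was removed, and without knockout replicates 1 and 4 together it was 1.48 (adjusted p 0.0940). Gfra3, the receptor for artemin, changed by 1.86 (SE 0.46, edgeR adjusted p 0.0328), at 0.409 to 0.649 CPM in controls and 1.94, 1.004, 1.18 and 3.99 CPM in knockout replicates 1 to 4. Its highest values were in knockout replicates 1 and 4, the libraries with chromaffin and neuronal transcripts. Without these 2 libraries its log2 fold change was 0.96 (edgeR adjusted p 0.228), in a fit that called 0.00522% of all genes. With the adrenal cortex covariate it was 1.37 (edgeR adjusted p 0.128), where 6.14% of all genes were called. The call was lost in both fits, and the part of chromaffin and neuronal transcripts in the Gfra3 change was not tested. The ligands Nrtn, Artn and Pspn and the co-receptor Gfra4 were not called.

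Of 6 other FGF ligands, Fgf1 fell, from 48.6 ± 7.59 to 29.9 ± 2.96 CPM (SD, n = 4 each), by −0.70 on the log2 scale (SE 0.12, edgeR adjusted p 0.0143), and all knockouts were below all controls. It overlaps Arhgap26 on the opposite strand. The other 5 had fold changes above 0 and were not called. Fgf10, a mesenchymal ligand that can drive ureteric bud branching, had 0.67 (adjusted p 0.144). None of 8 FGF receptors and co-factors was called by edgeR, with 3 at an unadjusted p under 0.05, against 35.1% of all genes. Fgfr1 (0.09, 95% interval −0.11 to 0.29) and Fgfr2 (0.09, 95% interval −0.17 to 0.35), the main receptors of the mesenchyme and of the ureteric bud, had intervals that included 0. That of Fgfr2 also included the log2 fold change of Spry2, 0.33, which was called. The annotated span of Fgfr2 (GENCODE M21) overlaps 69 other genes, 33 of them on the opposite strand, so its level may include their reads. Fgfr3 went from 25.5 ± 8.53 to 11.9 ± 4.91 CPM (log2 fold change −1.09, adjusted p 0.0510).

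Of 7 genes described as targets of RET or of Etv4 and Etv5 at the ureteric tip, 2 rose. They were Mmp14 (0.54, SE 0.13, edgeR adjusted p 0.0288), a membrane-bound matrix metalloproteinase, and Dusp6, also counted among the inhibitors above. Cxcr4, a chemokine receptor, was at 48.5, 72.0, 31.7 and 35.5 CPM in controls and at 85.1, 85.8, 55.3 and 55.8 CPM in knockouts (0.59, adjusted p 0.151). Its groups overlapped through control replicate 2. Myb (−0.03), Met (−0.21) and Wnt11 were not called.

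Among 16 genes that promote Gdnf or Ret expression, 2 rose and 0 fell. Gata3, a factor of the ureteric lineage needed for Ret expression, changed by 0.56 (SE 0.14, edgeR adjusted p 0.0364), and annotated genes overlap it on both strands. Aldh1a2, the stromal enzyme that makes the retinoic acid on which Ret expression depends, was also counted among the called renal stroma markers above. It went from 322 ± 87.4 to 552 ± 71.1 CPM (SD, n = 4 each), by 0.78 (SE 0.18, edgeR adjusted p 0.0267). All knockouts were above all controls. The retinoic acid receptors Rara (−0.06) and Rarb (0.14) and the Gdnf activators Eya1 (0.19), Pax2 (0.11) and Sall1 (0.27) were not called. Of 8 restrictors, Spry1 among them, Bmp7, which is classed here though it also keeps nephron progenitors alive, rose by 0.26 (SE 0.05, edgeR adjusted p 0.0215), and Grem1 fell from 1.44 ± 0.413 to 0.417 ± 0.202 CPM (−1.78, SE 0.36, edgeR adjusted p 0.0202). Grem1 encodes a BMP antagonist that permits ureteric bud outgrowth, so it acts against the restriction by Bmp4. Slit2, Robo2, Foxc1, Foxc2 and Bmp4 were not called.

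Most of these calls also depended on the libraries. The number of other pathway genes called with 1 library removed ran from 1 to 32. It was 1 without knockout replicate 4, where 0.819% of all genes were called, and 32 without control replicate 2, where 37.4% were. Gata3 kept its call in 1 of the 8 fits with a library removed. Mmp14, Spred1, Spred2, Dusp6 and Aldh1a2 kept theirs in 2, Bmp7 and Gfra3 in 3, Il17rd and Grem1 in 4, Spred3 in 6 and Fgf1 in 7.

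**Figure D4:**
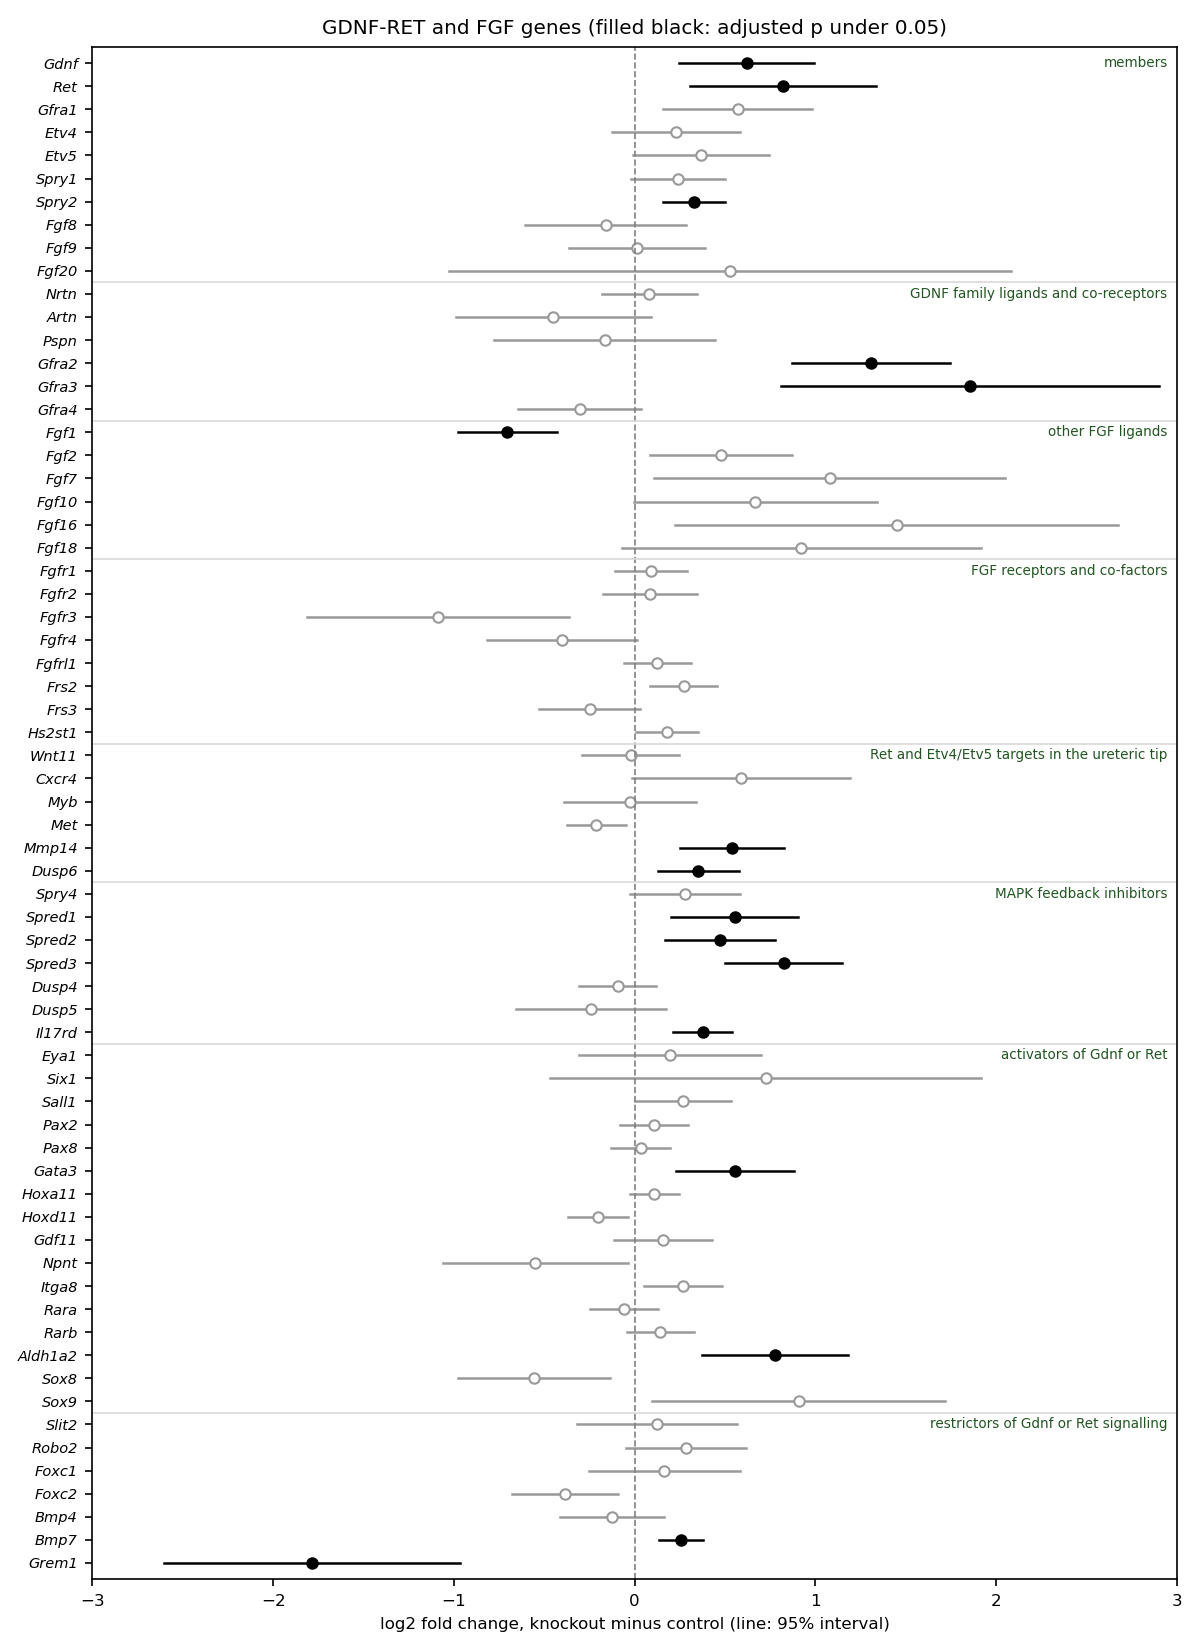
Log2 fold change, knockout minus control (x axis), with its 95% interval for the 10 genes and other genes of the pathways, in blocks by role. Filled black points are called (adjusted p under 0.05), grey open points are not. The 3 called members and 11 of the other genes lie to the right of 0, Fgf1 and Grem1 to the left.

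Genes with a level most like that of each member were found as the highest Pearson r of log2 CPM over the 8 libraries, which share the split by genotype. For Ret they were Fam172a (r = 0.997), Ror1 (0.994) and Ctnnd2 (0.993), and for Gdnf they were St8sia1 (0.995), Cbr2 (0.988) and Lmntd1 (0.987). For Gfra1 they were Tbce (0.993), Lrig2 (0.992) and Adam33 (0.991). Spry2 was most like Hoxa11os (0.995), Dlg4 (0.995) and Gpr45 (0.986), and Spry1 most like Klhl7 (0.994), Usp28 (0.992) and Usp42 (0.992). Etv4 was nearest to Lpcat1 (0.991) and Lcn2 (0.990). Etv5 was nearest to Cpne3 (0.990), Arnt2 (0.989) and Gabrg1 (0.988), and Fgf20 to Rest (0.988), Zfp799 (0.986) and Dcp1a (0.982). Fgf8 (Fan1 0.959, Zfp109 0.954, Grcc10 0.945) and Fgf9 (Recql5 0.901, Hcfc2 0.877, Sfxn5 0.861) had lower values.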

How the data were processed

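The members and gene lists were chosen with earlier results of these data known. Each deposited file lists, per the file headers, the exon coordinates and length of every gene and 1 column of read counts, which are whole numbers without normalization. The submitters' processing notes name GRCm38, Trimmomatic 0.36, STAR 2.5.2b, featureCounts, Subread 1.5.2 and DESeq2. Use of strand and of reads matching several genes in counting is not given in the sources used here. The table of the whole series differed from the library files in 0 cells. A table of Ensembl IDs and symbols gave names for 48970 of 49315 IDs, and Spry3 of the pathway list had no entry in it. Of 49056 IDs found in GENCODE M21, 91.4% had the same span there, as did 7 of the 10 members. Overlaps between genes were taken from the GENCODE M21 spans and not from the deposited gene models.

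Counts were scaled by TMM, filtered with filterByExpr and compared, 4 against 4, by quasi-likelihood testing (edgeR 4.0.16, R 4.3.3) without covariates and with Benjamini-Hochberg adjustment over all genes. The test was also run on simulated counts of independent libraries, with changes larger than those of Gdnf, Ret and Spry2. That run therefore does not bear on their calls. CPM and RPKM use TMM library sizes, and 1 count stood for 0.0346 to 0.0502 CPM. Each SE is the fold change over the square root of F. Chi-square per degree of freedom was 11.0 or more for each of 28 library pairs, so no library was present more than once. Log2 CPM used a prior count of 2. Genes were named by a rule: all 10 members, Kdm1a, called pathway genes, Fgfr1, Fgfr2, Wnt11, Cxcr4, Dusp6 and Spry4, markers, and the 3 genes most alike each member, passing over predicted genes, pseudogenes, Xist and Y-linked genes. Single values of 2 genes of these lists are not reported here. Other pathway genes, such as Fgfr3 and Fgf10, were named after their values were seen. Alternatives were DESeq2 1.42.0, its size factors, limma-voom 3.58.1 with sample weights, other filters, covariates, a replicate block and left-out libraries.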

Additional observations from a re-analysis of the deposited data

Results flagged for a closer look

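In 4 of 58 groups of 4 libraries examined, 1 library stood apart from the other 3 by Dixon's criterion, which chance meets in about 1 in 20 groups. Control replicate 2 was the high library in 3 of them, with Mmp14 at 232 CPM, Spred1 at 135 CPM and Gata3 at 94.7 CPM. Grem1 was highest among knockouts in knockout replicate 1, at 0.718 CPM.

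For 3 genes every knockout lay on one side of every control among libraries with Y-linked transcripts and on the other side among those without, a difference that was not tested and that rests on 1 control without them. For Etv4 (1.34 and 0.897) and Fgf9 (1.07 and 0.976) the folds of means also fell on opposite sides of 1, but single libraries overlapped. The knockout mean of Etv5 was 1.46-fold the control mean in libraries with Y-linked transcripts and 0.977-fold in those without. For Fgf8 the folds were 0.836 and 1.31, and for Fgf20 they were 3.06 and 0.574.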

How the results depend on the processing

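The number of the 10 genes called, 3 with edgeR, was 7 with limma-voom, 5 with the replicate block, 1 with the adrenal cortex covariate, 7 without control replicate 2 and knockout replicate 3 together, 0 without knockout replicates 1 and 4 together, and 0 to 7 with single libraries left out. The count for other pathway genes, 13, was 37, 20, 5, 35, 0 and 1 to 32 in the same order. For feedback inhibitors, 5, it was 2 with the adrenal cortex covariate, 0 without knockout replicates 1 and 4, and 0 to 6 with single libraries left out. For all genes, 2751, it was 4468 with DESeq2, 8302 with limma-voom, 1135 with the covariate, 7903 without control replicate 2 and knockout replicate 3, 1 without knockout replicates 1 and 4, and 153 to 7084 with single libraries left out. The Kdm1a change of −0.27 lost its call without knockout replicates 1 and 4 (−0.28, adjusted p 0.191) and in the 5 libraries with Y-linked transcripts (−0.28, adjusted p 0.0562), the latter chosen after seeing the data. With single libraries left out it ran from −0.29 to −0.24. Leaving libraries out lowered these counts in some fits and raised them in others. The part of the number of libraries in this was not tested, nor were other causes.

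Whether the replicate numbers pair the libraries cannot be told from these values. Deviations of same-numbered libraries correlated at −0.11, 0.33, 0.23 and −0.06, and those of the other pairs at −0.47 to 0.40. With the replicate block, where 17.5% of all genes were called, Gfra1 (adjusted p 0.0322), Etv5 (adjusted p 0.0398) and Cxcr4 (adjusted p 0.0137) were called as well, and Dusp6 (adjusted p 0.0580) and Gfra3 (adjusted p 0.0520) were not.

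Of the genes followed through the alternative fits, only Fgf8, Fgf9, Wnt11 and Fgfr2, near 0 and not called, turned sign. Folds of means in the split by Y-linked transcripts, given above, also pointed opposite ways for Etv4, Etv5 and Fgf20. Fgf8 was 0.034 without control replicate 1, and −0.32 to 0.034 with single libraries left out. Fgf9 was −0.019 with limma-voom, −0.0067 with no filter, −0.0097 with the adrenal cortex covariate, and between −0.092 and −0.0070 without control replicates 1, 2 or 3 or knockout replicates 1 or 2 (−0.092 to 0.14 over all single libraries). Wnt11 was 0.022 with the Y-linked covariate, 0.12 with the adrenal covariate, 0.14 without knockout replicates 1 and 4, 0.13 in the 5 libraries with Y-linked transcripts, and 0.058, 0.080 and 0.0038 without control replicate 1, knockout replicate 1 or knockout replicate 4 (lowest −0.095). Fgfr2 was −0.0029 without control replicate 2 and knockout replicate 3. Low counts limit Fgf20, Fgf16, Gfra3 and Grem1.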
